A study of Mus musculus with 4 samples.

Results

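The genes described here encode the protein subunits of the oxidative phosphorylation complexes, as they were measured in mouse lung. A gene was a member if its symbol started with Nduf followed by a, b, c, s or v and a digit, if it was Sdha, Sdhb, Sdhc or Sdhd, or if it started with Uqcr, with Cox and a digit from 4 to 8, or with Atp5. Its mean normalized read count over the 4 libraries also had to reach 4. There were 84 symbols of this kind among the 23282 rows of the deposited files, and 82 of them were members, of 15164 rows that reached the same mean count. The members were 35 genes of complex I, 4 of complex II, 8 of complex III, 18 of complex IV and 17 of complex V. The symbols left out were Cox7b2 (mean normalized read count 0.477) and Cox8c (0 reads in every library), and the lowest member was Atp5s (mean normalized read count 39.2). Of the 82 members, 4 carry symbols of this family without being a fixed subunit of the complex they were listed with: Ndufa4l2, Cox7a2l, Atp5s and Atp5sl. Ndufa4 and its relative Ndufa4l2 were counted with complex IV, since NDUFA4 protein is held by cytochrome c oxidase despite its name.

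Oxidative phosphorylation takes place in the inner mitochondrial membrane. Complex I (NADH dehydrogenase) and complex II (succinate dehydrogenase) pass electrons to ubiquinone, complex III (cytochrome bc1) passes them to cytochrome c, and complex IV (cytochrome c oxidase) passes them to oxygen. The protons pumped by complexes I, III and IV drive ATP synthase, complex V. Most subunits are encoded in the nucleus, and some central ones are encoded in mitochondrial DNA. Several chains of complex IV exist as a common form and a form found mainly in certain tissues, such as heart and skeletal muscle, lung or testis, and COX4I2 is known as a form of lung and of cells that sense low oxygen. Genes of the latter kind are called tissue-type isoforms below. Ndufa4l2 was grouped with them as the relative of Ndufa4, although it is not a fixed subunit.

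The libraries came from lungs of male CDF1 mice, labelled as postnatal day 28 (which may not be the age at sampling), in 4 groups that combined treadmill running (E) with cancer (T). The normal control E(-)T(-) had neither, the normal exercise group E(+)T(-) underwent high-intensity aerobic exercise, the cancer control E(-)T(+) received CT26 cells without exercise, and the cancer exercise group E(+)T(+) had both. CT26 is a murine colorectal carcinoma line, and it was given into the tail vein, so that a lung of these mice can hold host and tumor cells. Each group held 10 mice, but only 1 library per group was deposited, and the study's text gives a representative mouse per group as the source of its muscle RNA. It describes the lung analysis as similar, without naming the number of mice behind a lung library. There were therefore no replicates, no difference between groups below has a replicate check, and no p-value was computed. Where 4 levels or shares of a gene or list follow each other, they stand in the order normal control, normal exercise, cancer control, cancer exercise.

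Between 9354547 and 13367951 reads were recovered per library, and 3 reads, the smallest abundance taken as visible, corresponded to 0.224 to 0.321 CPM. The libraries stood apart in what else they held. Hemoglobin genes took 14.3%, 14.2%, 1.43% and 31.4% of all reads. The 13 alveolar epithelium markers, which define the tissue, summed to a normalized read count of 253105, 300082, 35786 and 197764, and none of them was at 0 reads. The 9 cell division markers summed to 455, 894, 11514 and 3716. The 7 neutrophil markers measured summed to 3859, 12027, 11191 and 207351. In E(+)T(-), 9 genes that were abundant in E(-)T(+) and lacking in E(-)T(-) were present at a median of 1.47% (range 0.642 to 2.18%) of their E(-)T(+) level. In bulk tissue, fewer cells of a type and less RNA per cell cannot be told apart.

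The subunit genes were abundant in every library. The median normalized read count of the members was 1124, 1183, 1488 and 1345. Together they took 1.10%, 1.13%, 1.56% and 0.913% of all reads. Of the reads outside hemoglobin, these shares were 1.29%, 1.31%, 1.58% and 1.33%, so that E(+)T(+) was the lowest library on the first scale and lay next to the libraries without tumor on the second. Since only the 3' end of each transcript was read, a long gene does not gain reads over a short one. The gene with the highest mean level was Ndufa2 in complex I, an accessory subunit of the NADH-oxidizing arm, with normalized read counts of 4016, 4786, 3997 and 4962. In complex II it was Sdhb, given below, and in complex IV it was Cox7a2, the common form of chain 7a, with 5434, 5657, 4750 and 5732. In complex III it was Uqcrh, the acidic hinge subunit, with 4924, 5513, 5665 and 5533, and in complex V it was Atp5g3, a gene for the c subunit of the rotor ring, with 4948, 5028, 10914 and 6386.

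**Figure D1:**
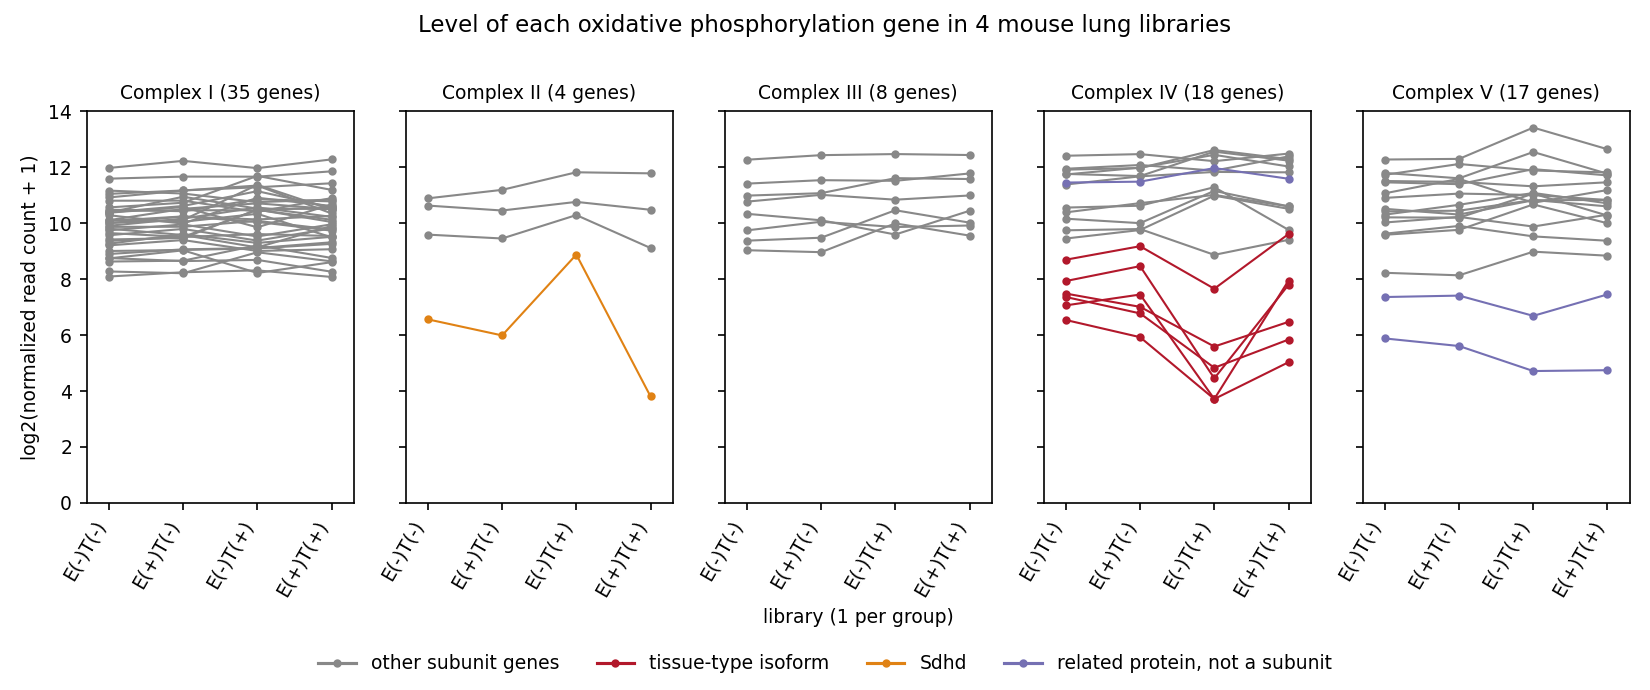
Level of each member in the 4 libraries, as log2(normalized read count + 1), in a panel for each complex; each line joins the values of a gene in 1 library per group. Sdhd and the 6 tissue-type isoforms of complex IV, in color, have the 7 widest ranges of the 19 members at 1 or more on this scale, and 30 of the 82 members have a range under 0.5.

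Across the 4 libraries most members had a range under 2-fold. The range of a member, its highest minus its lowest log2 value, had a median of 0.64 against 1.38 over all genes past the filter. A range of at least 1 was found for 23.2% of the members and for 66.0% of all genes. Of the 82 members, 65 were under 2-fold in each of the 4 comparisons and 17 reached 2-fold in at least 1 (20.7%, against 62.7% of all genes). The narrowest range was that of Ndufs6, an accessory subunit of complex I, at 0.14, and the widest were those of Sdhd at 5.07, Cox6b2 at 4.23 and Cox4i2 at 4.01. E(-)T(+) held the highest value of 41 members, against 35.5% of all genes, and the lowest of 24 (29.3%, against 36.9%). E(-)T(-) held the lowest value of 34 (41.5%, against 22.1%).

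Nuclear genes for mitochondrial proteins are known to be activated through promoter sites of NRF1 and of GABPA, and the promoters were searched for these letters. RefSeq (GRCm38.p6) gave a promoter, from 250 bases before to 50 bases after the start of transcription, for 68 of the 82 members and for 27025 genes in all, and both strands were searched. The NRF1 core CGCANGCG was present in 38.2% of the members and 9.22% of all genes, and its palindromic form CGCATGCG, which is contained in the former, in 13.2% and 2.07%. The GABPA core CCGGAAG was present in 23.5% of the members and 9.93% of all genes, and the YY1 core AAGATGGC, searched beside them, in 16.2% and 3.19%. Yy1 is itself in the list of regulators of mitochondrial biogenesis described below, so the share of its core is not a neutral baseline. All genes include noncoding and silent ones, so these shares compare the members with the whole table. By complex, CGCANGCG was present in 10 of 31 promoters of complex I, 2 of 3 of complex II, 3 of 5 of complex III, 1 of 13 of complex IV and 10 of 16 of complex V. None of the 3 tissue-type isoforms with a promoter in the table held any of these letters, against 43 of the 65 other members. This lack is not particular to the isoforms within complex IV. Cox5a, Cox5b, Cox7a2, Cox7a2l, Cox7b, Cox7c and Ndufa4 held none of them either, while Cox6a1, Cox6b1 and Cox8a held at least 1. The 100 bases before the start are shown for members with the letters in several complexes, then for the common chain gene Cox6b1 beside 3 tissue-type isoforms, with CGCANGCG and CCGGAAG on either strand in capitals. They lie at chr13:74350241-74350340 (Sdha, minus strand), chr9:50603850-50603949 (Sdhd, minus), chr2:36049339-36049438 (Ndufa8, minus), chr15:102671048-102671147 (Atp5g2, minus), chr7:30626115-30626214 (Cox6b1, minus), chr7:4753095-4753194 (Cox6b2, minus), chr7:30184071-30184170 (Cox7a1, plus) and chr7:140900447-140900546 (Cox8b, minus).
Sdha: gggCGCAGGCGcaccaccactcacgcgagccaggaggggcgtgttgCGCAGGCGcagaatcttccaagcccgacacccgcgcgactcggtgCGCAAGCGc
Sdhd: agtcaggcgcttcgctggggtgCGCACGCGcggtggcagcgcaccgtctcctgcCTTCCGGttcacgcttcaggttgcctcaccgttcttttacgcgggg
Ndufa8: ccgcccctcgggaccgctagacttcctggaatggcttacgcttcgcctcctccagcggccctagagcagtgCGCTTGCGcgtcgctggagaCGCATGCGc
Atp5g2: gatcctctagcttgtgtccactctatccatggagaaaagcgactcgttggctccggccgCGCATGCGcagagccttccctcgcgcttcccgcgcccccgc
Cox6b1: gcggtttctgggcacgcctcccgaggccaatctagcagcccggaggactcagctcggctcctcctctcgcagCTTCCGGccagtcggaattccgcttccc
Cox6b2: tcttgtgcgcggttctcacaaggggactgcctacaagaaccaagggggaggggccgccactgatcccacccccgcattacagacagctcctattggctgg
Cox7a1: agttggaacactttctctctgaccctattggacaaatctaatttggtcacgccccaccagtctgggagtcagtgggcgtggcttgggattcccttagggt
Cox8b: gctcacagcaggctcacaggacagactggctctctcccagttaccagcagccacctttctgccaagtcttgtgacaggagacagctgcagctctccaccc
A match describes these letters and is neither a bound site nor a cause, and a window without a match says only that these letters are not in it. Members with CGCANGCG (26) and without it (42) had median differences of 0.06 and 0.08 for exercise without tumor, 0.12 and 0.23 for the tumor without exercise, -0.04 and -0.16 for exercise with tumor, and 0.06 and 0.04 for the tumor with exercise.

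All differences below are differences of log2(normalized read count + 1), and a gene was counted as past the limit at 2-fold or more, that is 1 on this scale. Intervals are 95% exact (Clopper-Pearson) intervals of the log2 ratio of reads, scaled by library size, and they cover counting error only. Over the members their median half-width was 0.113 in the first comparison below, 0.111 in the next, then 0.115 and 0.117. At these read counts an interval can therefore exclude 0 for a small difference. The intervals do not stand for the unknown spread between mice.

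**Figure D2:**
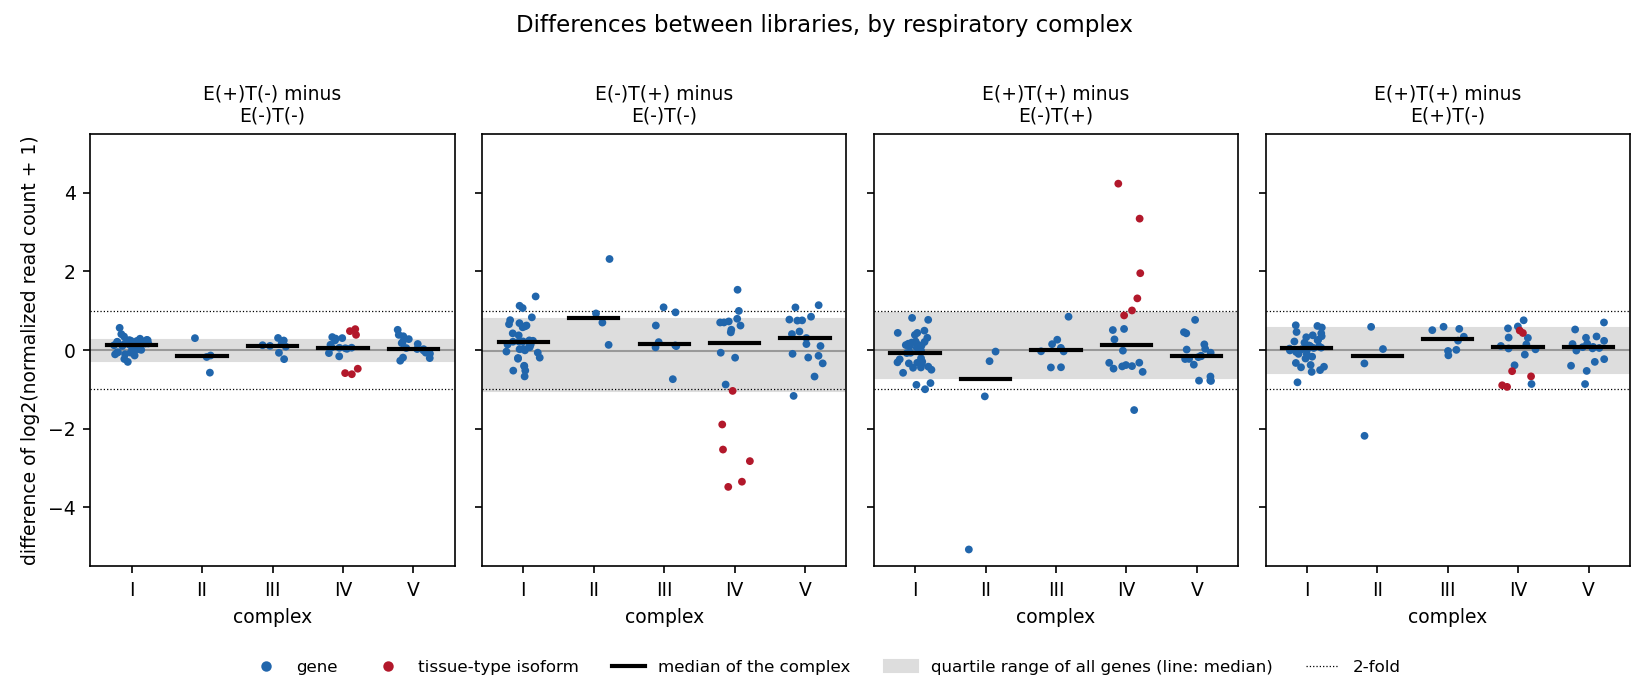
Difference of log2(normalized read count + 1) for each member by complex in the 4 comparisons, with the median of each complex as a bar and the quartile range of all genes past the filter as a gray band. No member passes 2-fold for exercise without tumor, and the 6 tissue-type isoforms of complex IV are its lowest genes for the tumor without exercise and its highest for exercise with tumor.

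The exercise effect without tumor was read as E(+)T(-) against E(-)T(-). No member was 2-fold higher or lower, while 5.28% of all genes were higher and 4.70% lower. Of the 9396 genes with a mean normalized read count of at least 100, a level that 79 of the 82 members had, 1.68% were higher and 0.447% lower. The members had a median difference of 0.10 (quartiles -0.06 and 0.24), against 0.00 for all genes, and 57 of 82 were above 0, against 50.0% of all genes. Under library totals and under totals without hemoglobin, 42 and 41 members were above 0 and their median was 0.01 on both scales, where the median of all genes was -0.08. With a share of the E(-)T(+) level taken out of E(+)T(-), the members' median was 0.05 and 52 were above 0. The medians were 0.14 in complex I, -0.16 in complex II, 0.11 in complex III, 0.06 in complex IV and 0.03 in complex V.

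The member with the largest positive difference was Ndufa5, an accessory subunit of the ubiquinone-reducing part of complex I, with normalized read counts of 1330, 1968, 1465 and 1452. E(+)T(-) was its highest library, and the difference was 0.56 (interval 0.47 to 0.66). Cox4i2 followed at 0.53 (0.31 to 0.76), and Atp5h, which encodes subunit d of the stator stalk of ATP synthase, followed at 0.52 (0.44 to 0.59). The lowest were Cox8b at -0.61 (-1.09 to -0.16), Cox7a1 at -0.59 (-0.93 to -0.25) and Sdhd at -0.57 (-1.04 to -0.13). The isoforms Cox7a1 and Cox8b are known from muscle and brown fat, and markers of some of those tissues were lower in E(+)T(-) while others were not. Of the 6 skeletal muscle markers past the filter 3 were 2-fold lower and 0 higher, and the summed count of the 10 listed was 163 in E(-)T(-) and 99.0 in E(+)T(-). Of the 4 brown adipocyte markers past the filter 2 were lower and 1 higher, and the sums of the 5 listed were 341 and 258, of which Dio2, the marker that was higher, held 27.9 and 86.3. Of the 4 adipocyte markers past the filter 2 were lower and 0 higher, with a median of -1.12, and the 5 listed summed to 3233 and 1374. The 9 heart muscle markers had a median of 0.05, none was past 2-fold, and their sums were 1835 and 1934. Cox6a2, an isoform of heart and skeletal muscle, was at 0.48. Of the 7 neutrophil markers 6 were 2-fold higher and 0 lower, with a median of 1.77. Of the 9 cell division markers 4 were higher and 0 lower, with all 9 above 0 and a median of 0.96. Of the erythroid markers 2 of 10 were higher and 0 lower. The part of these tissues and cells in the members' differences was not tested.

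The tumor effect without exercise was read as E(-)T(+) against E(-)T(-), the control library also used above. Genes for common subunits tended to lie higher in the cancer control. All 6 genes grouped as tissue-type isoforms of complex IV, Ndufa4l2 among them, lay lower. The members had a median difference of 0.21 (quartiles -0.18 and 0.70), against -0.03 for all genes, and 55 of 82 were above 0, against 48.9% of all genes. Genes with a mean count of at least 100 had a median of 0.05, beside 0.22 for the 79 members at that level, and 18.3% of those genes were 2-fold higher and 19.98% lower. There were 8 members at 2-fold or more higher (9.76%), against 20.6% of all genes, and 7 lower (8.54%), against 25.7%. Among the 79 members at a mean count of at least 100, 8 were higher and 4 lower. The count of higher members was 11 under library totals, 10 under median-of-ratios size factors and 5 under totals without hemoglobin.  Without the isoforms the median of the remaining 76 members was 0.23, with 8 higher and 1 lower.

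In complex I the median was 0.21. The 7 core subunits, which carry the flavin, the iron-sulfur clusters and the ubiquinone site, had a median of 0.66, and the 28 accessory subunits had 0.14. Ndufv1 (chr19:4007499-4012755), the subunit that binds NADH, had normalized read counts of 682, 707, 1430 and 1053, and its difference was 1.07 (0.94 to 1.20). Ndufa10 (chr1:92439486-92473825), an accessory subunit of the proximal membrane arm, had 1028, 1105, 2646 and 1433, a difference of 1.36 (1.26 to 1.46). Ndufb9 (chr15:58933801-58939516), of the distal membrane arm, had 1511, 1696, 3298 and 2332, a difference of 1.13 (1.04 to 1.21), and it shares exons with a readthrough gene model. In all of these E(-)T(+) was the highest library and E(+)T(+) the next. The member of complex I nearest to the median, Ndufs1, which holds iron-sulfur clusters of the NADH arm, had 476, 534, 551 and 636, with a difference of 0.21 (0.04 to 0.39). The differences in complex I ran from -0.67 to 1.36, and 24 of 35 were above 0.

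In complex II all 4 genes were higher in E(-)T(+), with a median of 0.81. Sdha encodes the flavoprotein that oxidizes succinate, and its normalized read counts were 1580, 1399, 1732 and 1424. Sdhb encodes the iron-sulfur subunit, and it had 1891, 2334, 3607 and 3513. Sdhc and Sdhd encode the membrane anchor, and Sdhc (chr1:171129157-171150640) had 769, 699, 1249 and 552. The differences for the tumor without exercise were 0.13 (0.03 to 0.23) for Sdha, 0.93 (0.85 to 1.01) for Sdhb and 0.70 (0.57 to 0.83) for Sdhc, so that 3 of the 4 genes were under 2-fold. Under library totals Sdhb was past the limit.

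Sdhd (chr9:50596340-50603849) stood apart from its partners in every comparison that involved the tumor. Its normalized read counts were 93.4, 62.4, 469 and 13.0, from 110, 68, 428 and 11 reads. E(-)T(+) was highest and E(+)T(+) lowest, and the other two libraries lay between them. Its share of the reads of the 4 Sdh genes was 2.16%, 1.39%, 6.64% and 0.234%. The difference was 2.31 (2.02 to 2.64) for the tumor without exercise, -5.07 (-6.20 to -4.33) for exercise with tumor and -2.18 (-3.35 to -1.35) for the tumor with exercise. Only 51 bases lie between the starts of Sdhd and of Timm8b, which encodes a small chaperone of the mitochondrial intermembrane space and is read in the other direction, so that the window printed above for Sdhd also holds the first bases of Timm8b. Timm8b had normalized read counts of 915, 1252, 1114 and 1025, and it was under 2-fold in all 4 comparisons.

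**Figure D3:**
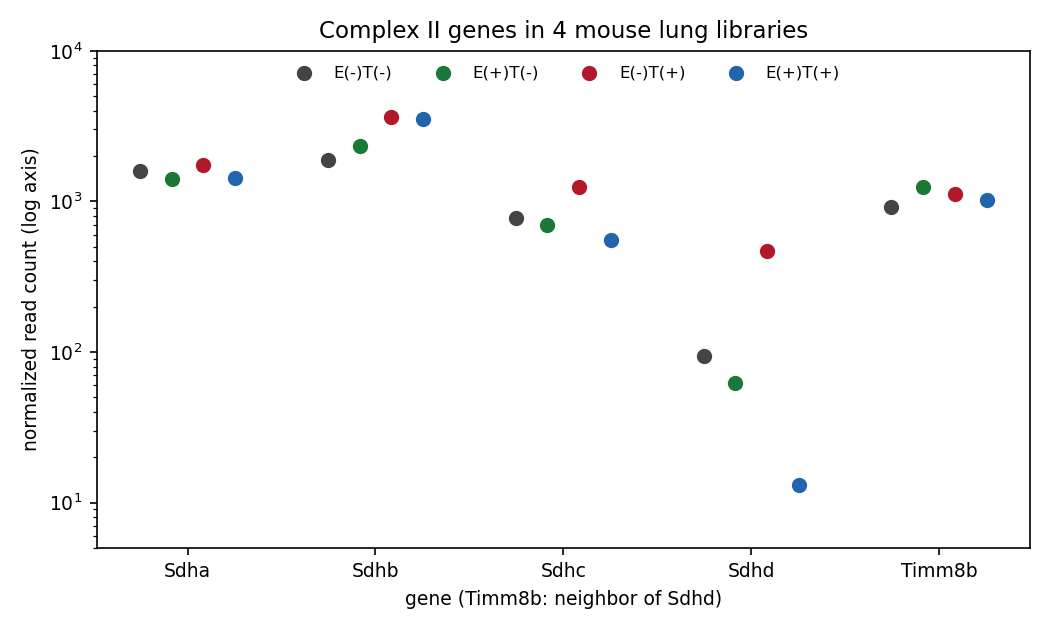
Normalized read count (log axis) of the 4 genes of complex II and of Timm8b, the neighbor of Sdhd, in each of the 4 libraries. Sdhd runs from 13.0 in E(+)T(+) to 469 in E(-)T(+), while Sdhc, the next lowest of the other genes, runs from 552 to 1249.

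In complex III the median for the tumor without exercise was 0.16, and 7 of 8 genes were above 0. The gene past the limit was Uqcrfs1 (chr13:30540312-30545316), which encodes the Rieske iron-sulfur protein of the catalytic core. It had normalized read counts of 662, 713, 1408 and 1036, and the difference was 1.09 (0.96 to 1.22). The gene below 0 was Uqcr11, which encodes a small subunit, with 1289, 1098, 771 and 1389 and a difference of -0.74 (-0.87 to -0.61). E(-)T(+) was the highest library for Uqcrfs1 and the lowest for Uqcr11. Uqcrb, a small subunit near the ubiquinone site, lay close to the median of the complex, at 0.12 (-0.02 to 0.25).

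In complex V the median was 0.31. The 3 genes for the c subunit of the rotor ring were all higher in E(-)T(+). They encode the same mature protein, and Atp5g3 (chr2:73908447-73912464) gave 77.0% to 80.6% of their reads in each library. Its difference was 1.14 (1.09 to 1.19), beside 0.85 (0.75 to 0.95) for Atp5g2 and 0.76 (0.55 to 0.96) for Atp5g1. Atp5c1 (chr2:10056030-10080510), which encodes the central stalk subunit gamma, had 766, 866, 1626 and 1019, with a difference of 1.08 (0.96 to 1.21). With hemoglobin left out of the library totals, Atp5c1, Ndufv1 and Uqcrfs1 were less than 2-fold higher. The 4 genes of the peripheral stalk, by contrast, had a median of -0.14, and 1 of 4 was above 0. Among them, Atp5h had 2143, 3063, 1695 and 2324 and a difference of -0.34 (-0.43 to -0.25). Atp5s (chr12:69724913-69744665), a relative of ATP synthase named Dmac2l in RefSeq, had 57.9, 47.8, 25.2 and 25.8 and a difference of -1.17 (-1.95 to -0.50), from 68, 52, 23 and 22 reads.

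Complex IV divided by the kind of chain. The 11 common chains had a median of 0.70 for the tumor without exercise, with 8 of 11 above 0. Cox5b (chr1:36691487-36693388), the zinc-binding chain, had normalized read counts of 698, 862, 2023 and 1458. Both tumor libraries were above both libraries without tumor, and the difference was 1.53 (1.41 to 1.65), the largest among the common chains. Cox4i1, the common form of the chain that binds ATP, had 3465, 3285, 6017 and 4816, and Cox8a had 3847, 4011, 6259 and 5000, with differences of 0.80 (0.74 to 0.86) and 0.70 (0.65 to 0.76). The chains that were lower were Ndufa4 at -0.88 (-1.04 to -0.71), Cox7a2 at -0.19 (-0.25 to -0.14) and Cox6a1 at -0.07 (-0.13 to -0.00). Cox7a2l, which joins complexes III and IV into a supercomplex, had 2797, 2859, 4002 and 3073 and a difference of 0.52 (0.45 to 0.59).

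The 6 tissue-type isoforms had a median of -2.68 in the same comparison, and all 6 were at 2-fold or more lower. Cox4i2 (chr2:152753916-152765039) had normalized read counts of 243, 352, 20.9 and 221. Cox6b2 (chr7:4751792-4753094), known as the testis form, had 133, 174, 12.1 and 245, and Cox6a2 (chr7:128205435-128206366), the form of heart and skeletal muscle, had 413, 577, 201 and 780. For these genes E(-)T(+) was the low library, and the other three were less than 1 apart on the log2 scale for each gene. Cox7a1 (chr7:30184171-30186030), the heart and muscle form of chain 7a, had 163, 108, 27.5 and 56.2. Cox8b (chr7:140898942-140900446), likewise a form of muscle and brown fat, had 91.9, 59.7, 12.1 and 31.6, and Ndufa4l2 (chr10:127509274-127517154), a gene known to be induced by low oxygen, had 178, 128, 47.2 and 87.7. In these last genes the order was the same, with E(-)T(-) highest, E(+)T(-) next, E(+)T(+) lower and E(-)T(+) lowest.

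The differences for the tumor without exercise were -3.48 (-4.30 to -2.88) for Cox4i2, -3.35 (-4.49 to -2.58) for Cox6b2, -2.82 (-3.97 to -2.03) for Cox8b, -2.53 (-3.24 to -1.97) for Cox7a1, -1.89 (-2.42 to -1.44) for Ndufa4l2 and -1.04 (-1.30 to -0.79) for Cox6a2. Under library totals and under median-of-ratios size factors Cox6a2 was less than 2-fold lower. The lowest of these counts rested on 19 reads for Cox4i2 and 11 reads each for Cox6b2 and Cox8b in E(-)T(+). As a share of the reads of both genes for the chain, Cox4i2 made up 6.56%, 9.67%, 0.345% and 4.39%, and Cox6b2 made up 4.74%, 5.05%, 0.330% and 6.38%. For Cox6a2 the shares were 9.50%, 11.8%, 5.07% and 12.7%. In every library the common form gave most of the reads of its chain, and the share of each of these isoforms was lowest in E(-)T(+). Exons of Cox6a2 overlap those of Itgad, and exons of Ndufa4l2 those of Shmt2, on the opposite strand, and the use of strand in counting is not given in the sources used here. Itgad had at most 24.9 normalized reads in any library, and Shmt2 had 211, 188, 710 and 315.

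**Figure D4:**
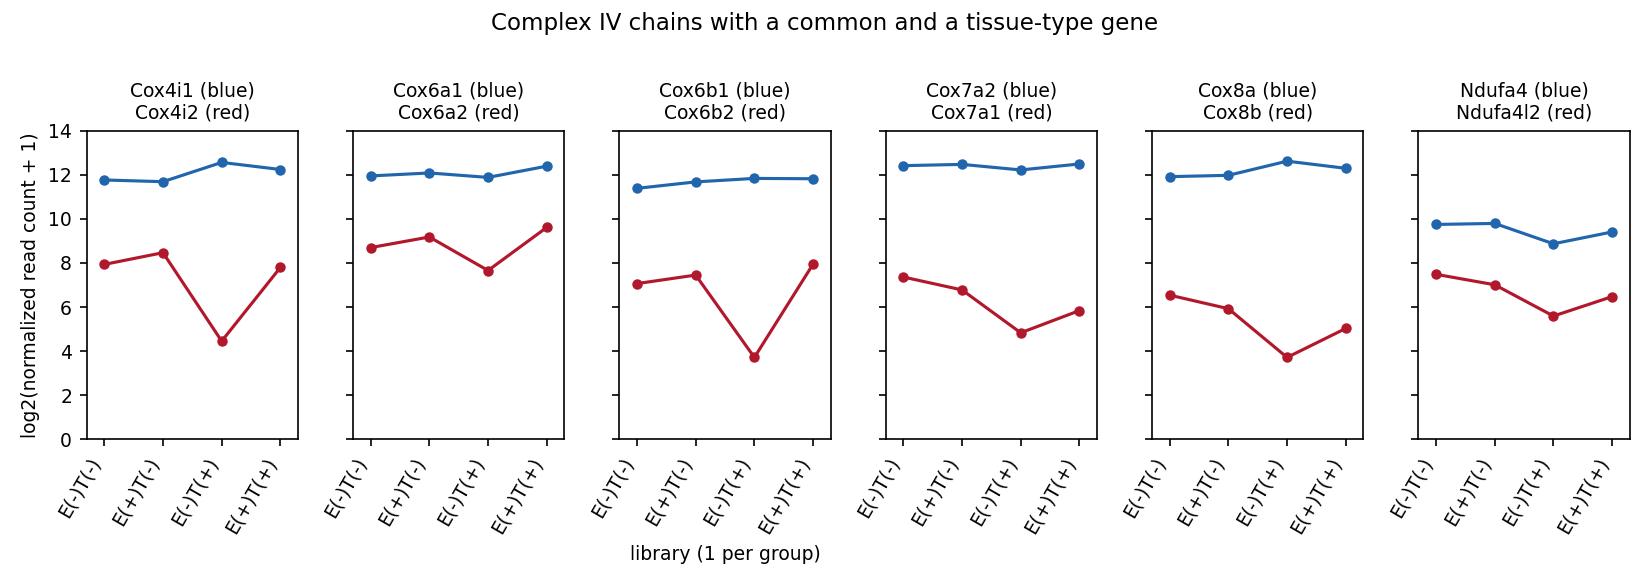
Level, as log2(normalized read count + 1), of the common gene (blue) and the tissue-type gene (red) for 6 chains of complex IV in the 4 libraries, 1 per group. Every red line is lowest in E(-)T(+), while no blue line drops by as much as 1 there.

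Markers of the tissues known for these isoforms did not all move alike in the same comparison. Of the 9 heart muscle markers, 6 were 2-fold lower and 0 higher in E(-)T(+) against E(-)T(-), and their summed normalized read count was 1835, 1934, 632 and 1487, with none at 0 reads. All 13 alveolar epithelium markers and all 5 endothelium markers were 2-fold lower in E(-)T(+), with medians of -2.58 and -3.29, and the endothelium markers summed to 17465, 17880, 1965 and 14355, with none at 0 reads. Blood cell markers differed as well: 9 of 10 erythroid (median -3.27), 6 of 7 T cell (-3.35) and 4 of 4 B cell markers past the filter (-6.74) were lower, and 6 of 7 neutrophil markers were higher (2.68). Fibroblast and pericyte markers went both ways, with 3 of 6 higher and 2, Cspg4 and Pdgfrb, lower (median 0.74). Airway markers were lower for 3 of 4 genes and higher for 0 (median -1.50). Macrophage markers were higher for 1 of 5 genes, Marco, and lower for 0, with a list median of 0.82. Of the 4 adipocyte markers 2 were lower and 1, Fabp4, was higher (median -1.30). The 5 adipocyte markers listed summed to 3233 in E(-)T(-) and 6779 in E(-)T(+), of which Fabp4 held 2116 and 6255. The 6 skeletal muscle markers past the filter had a median of -0.05 in this comparison, with 1 higher and 1 lower. Of the 4 brown adipocyte markers past the filter 3 were lower and 1, Dio2, was higher at 5.59 (5.14 to 6.18). The 5 listed summed to 341 in E(-)T(-) and 1517 in E(-)T(+), where Dio2 alone held 1396. All 9 cell division markers were 2-fold higher in E(-)T(+), with a median of 4.96. The part of these tissues and cells in the isoforms' or the common chains' differences was not tested, and tumor cells in the lung and a change in lung cells cannot be told apart here.

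The exercise effect with tumor was read as E(+)T(+) against E(-)T(+), and it shares the library E(-)T(+) with the comparison above. The members had a median difference of -0.07 (quartiles -0.40 and 0.25), against 0.01 for all genes, and 35 of 82 were above 0, against 50.3% of all genes. Genes with a mean count of at least 100 had a median of -0.07, with 46.9% above 0, beside -0.08 and 32 of 79 for the members at that level, so that the medians lay close together there. At that level 19.5% of genes were 2-fold higher and 14.3% lower, beside 3 of the 79 members higher and 3 lower. Over all 82 members, 5 were at 2-fold or more higher (6.10%), against 24.3% of all genes, and 3 lower (3.66%), against 17.7%. Under library totals 3 members were higher and 21 lower, on a scale where the median of all genes was -0.59. The 5 higher of the 82 were all tissue-type isoforms of complex IV, and the 3 lower were Sdhd, Cox7c and Sdhc. Without the isoforms the median was -0.15, with 0 higher and 3 lower. The medians were -0.07 in complex I, -0.73 in complex II, 0.01 in complex III, 0.13 in complex IV and -0.16 in complex V. Relative to all genes the median of complex IV, 0.12, turned to -0.10 at a mean count of at least 100 and to -0.18 with Ndufa4 and Ndufa4l2 in complex I. Within complex IV the common chains had a median of -0.32 and the isoforms had 1.63.

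Among the isoforms the difference was 4.23 (3.48 to 5.37) for Cox6b2, 3.34 (2.72 to 4.17) for Cox4i2, 1.95 (1.72 to 2.20) for Cox6a2, 1.31 (0.33 to 2.55) for Cox8b, 1.01 (0.31 to 1.79) for Cox7a1 and 0.88 (0.34 to 1.47) for Ndufa4l2. Cox7a1 was under the limit with a pseudocount of 4 and under each of the other scalings tried, and Cox8b under library totals. In E(+)T(+), Cox6b2 and Cox6a2 were above their level in E(-)T(-), Cox4i2 was close to it, and Cox7a1, Cox8b and Ndufa4l2 remained between the libraries E(-)T(+) and E(-)T(-). Heart muscle markers were 2-fold higher for 7 of 9 genes and lower for 1, all 13 alveolar epithelium and all 5 endothelium markers were higher, and 4 of 6 skeletal muscle markers past the filter were higher. Of the 7 neutrophil markers 6 were higher and 1 lower, with a median of 4.18. Of the 9 cell division markers 8 were lower and 0 higher, with a median of -1.97. All 10 erythroid markers (median 5.30), all 7 T cell markers (2.79) and all 4 B cell markers past the filter (4.97) were higher. Airway markers were higher for 2 of 4 genes and lower for 0 (median 1.37). Fibroblast and pericyte markers were lower for 2 of 6 genes, Col1a2 and Col3a1, and higher for 0 (median -0.13). Macrophage markers were higher for 1 of 5 genes and lower for 1. Of the 4 brown adipocyte markers 1 was higher and 1, Dio2, lower, and the 5 listed summed to 1517 in E(-)T(+) and 339 in E(+)T(+), of which Dio2 held 1396 and 227. All 4 adipocyte markers past the filter were below 0 (median -0.46), 1 of them 2-fold lower. The part of these cells in the members' differences was not tested.

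The 3 members at 2-fold or more lower with exercise in tumor-bearing lung belonged to complexes II and IV. In the other complexes 19 of 35 genes of complex I, 4 of 8 of complex III and 11 of 17 of complex V were below 0. Of all 15164 genes past the filter 7536 were below 0, a share near those of complexes I and III. Cox7c (chr13:86044798-86046795), a common small chain, had normalized read counts of 1504, 1575, 2493 and 865 so that E(+)T(+) was its lowest library and E(-)T(+) its highest. The difference was -1.52 (-1.65 to -1.41). Sdhc followed at -1.18 (-1.34 to -1.02), with E(+)T(+) again the lowest of its libraries. Just short of the limit was Ndufb3, an accessory subunit of the distal membrane arm of complex I, with 1934, 2298, 2597 and 1301, where the difference was -0.996 (-1.10 to -0.89), and it was past the limit under library totals, with and without hemoglobin, and under median-of-ratios size factors. The other genes of complex II were at -0.28 (-0.39 to -0.17) for Sdha and -0.04 (-0.11 to 0.03) for Sdhb. The most positive member outside the isoforms was Uqcr11 at 0.85 (0.71 to 0.98).

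The exercise differences without and with tumor come from separate pairs of libraries. For 40 of the 82 members they had opposite signs (48.8%), near the 49.8% of all genes. Of these, 31 were above 0 without tumor and below 0 with it (37.8% of members, against 24.9% of all genes), and 9 were the reverse (11%, against 24.9%). For 26 members both were above 0 and for 16 both were below 0. These signs move with the scaling, as the counts above 0 given for each comparison show.

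The tumor effect with exercise was read as E(+)T(+) against E(+)T(-), and each of these libraries also enters 1 of the exercise comparisons. The members had a median difference of 0.06 (quartiles -0.20 and 0.32), against -0.00 for all genes, and 52 of 82 were above 0, against 49.8% of all genes. No member was 2-fold higher, against 14.9% of all genes, and 1 was 2-fold lower (1.22%), against 13.0%. Among genes with a mean count of at least 100 the shares were 9.80% and 8.14%. That member was Sdhd. Under library totals 7 members were lower, 16 were above 0 and the members' median was -0.36, on a scale where the median of all genes was -0.41. The medians were 0.05 in complex I, -0.16 in complex II, 0.29 in complex III, 0.07 in complex IV and 0.07 in complex V.

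The highest were Cox5b at 0.76 (0.63 to 0.88), Atp5g1 at 0.70 (0.48 to 0.92) and Ndufa8, an accessory subunit of the proximal arm of complex I, at 0.63 (0.51 to 0.75). After Sdhd, the lowest were Cox7a1 at -0.94 (-1.47 to -0.45), Cox8b at -0.90 (-1.62 to -0.25) and Atp5s at -0.86 (-1.68 to -0.15), with Cox7c at -0.86 (-0.99 to -0.74). The isoforms did not keep together in this comparison. Cox6b2 at 0.50 (0.21 to 0.79) and Cox6a2 at 0.43 (0.28 to 0.59) were above 0, and Cox4i2 at -0.67 (-0.93 to -0.42) and Ndufa4l2 at -0.54 (-0.97 to -0.13) were below it. Beside them, 4 of 6 skeletal muscle markers past the filter were 2-fold higher and 0 lower (median 1.47), and 3 of 9 heart muscle markers were lower and 0 higher (median -0.23). All 7 neutrophil markers (median 4.24) and all 10 erythroid markers (median 1.71) were higher, 2 of 7 T cell and 2 of 4 B cell markers were lower with 0 higher, 7 of 9 cell division markers were higher and 0 lower (median 2.03), and 3 of 13 alveolar epithelium and 1 of 5 endothelium markers were lower with 0 higher. Macrophage markers were higher for 2 of 5 genes and lower for 0 (median 0.90), with all 5 above 0. Airway markers were lower for 1 of 4 genes and higher for 0, and fibroblast and pericyte markers were higher for 1 of 6 and lower for 1. Of the 4 brown adipocyte markers 2 were higher and 1 lower. All 4 adipocyte markers past the filter were below 0 (median -0.75), 1 of them 2-fold lower. The part of these tissues and cells in the isoforms' differences was not tested.

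Other genes of the mitochondrion were described by lists. The 13 subunits encoded in mitochondrial DNA have no row in the files and were not analysed here. The 6 genes listed as partners outside the symbol rule were Ndufab1, the acyl carrier protein of complex I, Cyc1 of complex III, cytochrome c gene Cycs, Atpif1, the inhibitor of ATP synthase, Usmg5 and Minos1. Not all of them are subunits of a complex. Their median was 0.27 for exercise without tumor, 0.52 for the tumor without exercise, -0.31 for exercise with tumor and -0.20 for the tumor with exercise. The lowest of the list for the tumor without exercise was Minos1, at -0.06 (-0.18 to 0.05). Atpif1 had normalized read counts of 2563, 3208, 5760 and 3950 and was 2-fold higher for the tumor without exercise, at 1.17 (1.10 to 1.23). Ndufab1, with 51.8, 81.8, 118 and 45.7, was 2-fold higher there, at 1.18 (0.72 to 1.67), and 2-fold lower for exercise with tumor, at -1.35 (-1.94 to -0.84).

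The 44 assembly factors, which help to build the complexes, had a median of 0.32 for the tumor without exercise (6 higher and 2 lower at 2-fold) and -0.54 for exercise with tumor (1 higher and 11 lower). The 77 mitochondrial ribosome genes had 0.65 (21 higher and 0 lower) and -0.51 (0 higher and 12 lower), and the 23 measured of 25 import genes had 0.72 (8 and 0) and -0.56 (0 and 6). The 13 citric acid cycle genes had 0.53 (3 and 0) and -0.33 (0 and 2). Of all genes 20.6% were higher in the first and 17.7% lower in the second of these comparisons. The shares of the lists were 13.6% and 25% for assembly factors, 27.3% and 15.6% for the ribosome, 34.8% and 26.1% for import and 23.1% and 15.4% for the citric acid cycle, so that some lay above and some below those of all genes. In each of these lists the median was above 0 in the first and below 0 in the second of these comparisons, which share E(-)T(+), as were the medians of 0.23 and -0.15 of the members without isoforms. For exercise without tumor the medians were 0.12, 0.13, 0.19 and -0.01 in the same order of lists, with 1 gene higher and 0 lower at 2-fold over the 4 lists. For the tumor with exercise they were -0.42, -0.06, 0.06 and 0.04.

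The regulators of mitochondrial biogenesis (14 measured of 15 listed) had medians of -0.15, 0.27, -0.41 and -0.04 for exercise without tumor, the tumor without exercise, exercise with tumor and the tumor with exercise. At 2-fold, 0 were higher and 1 lower in the first, 3 and 1 in the next, then 0 and 2, and 2 and 2. The 21.4% higher for the tumor without exercise lay near the 20.6% of all genes, and the 14.3% in each direction for the tumor with exercise near the 14.9% and 13.0% of all genes. Nrf1, which encodes the factor whose core letters were searched, had normalized read counts of 235, 237, 357 and 281. Gabpa had 92.6, 78.9, 225 and 172, and its differences of 1.27 (0.94 to 1.63) and 1.11 (0.73 to 1.52) for the tumor without and with exercise were past the limit. Exons of Gabpa overlap those of the more abundant member Atp5j (787, 954, 736 and 661) on the opposite strand, so that reads of the genes may not be told apart. Ppargc1b, a relative of PGC-1alpha, had 80.0, 19.2, 49.3 and 64.3, and was past the limit lower for exercise without tumor (interval -2.81 to -1.36) and higher for the tumor with exercise, at 1.69 (0.99 to 2.54). Tfb1m, which encodes a methyltransferase of mitochondrial ribosomal RNA, had 57.9, 49.6, 57.0 and 9.48, and its differences were -2.47 (-3.89 to -1.52) for exercise with tumor and -2.27 (-3.69 to -1.33) for the tumor with exercise. Esrra, which encodes a nuclear receptor that acts with PGC-1alpha, had 528, 623, 1186 and 580, with 1.17 (1.02 to 1.31) for the tumor without exercise and -1.03 (-1.19 to -0.88) for exercise with tumor. The other regulators past the limit were Peo1 (higher) and Polg (lower) for the tumor without exercise and Polrmt (lower) for the tumor with exercise. Ppargc1a, the coactivator PGC-1alpha, had 56.1, 53.3, 52.6 and 53.8 and differed by at most 0.09 in any of the 4 comparisons.

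**Figure D5:**
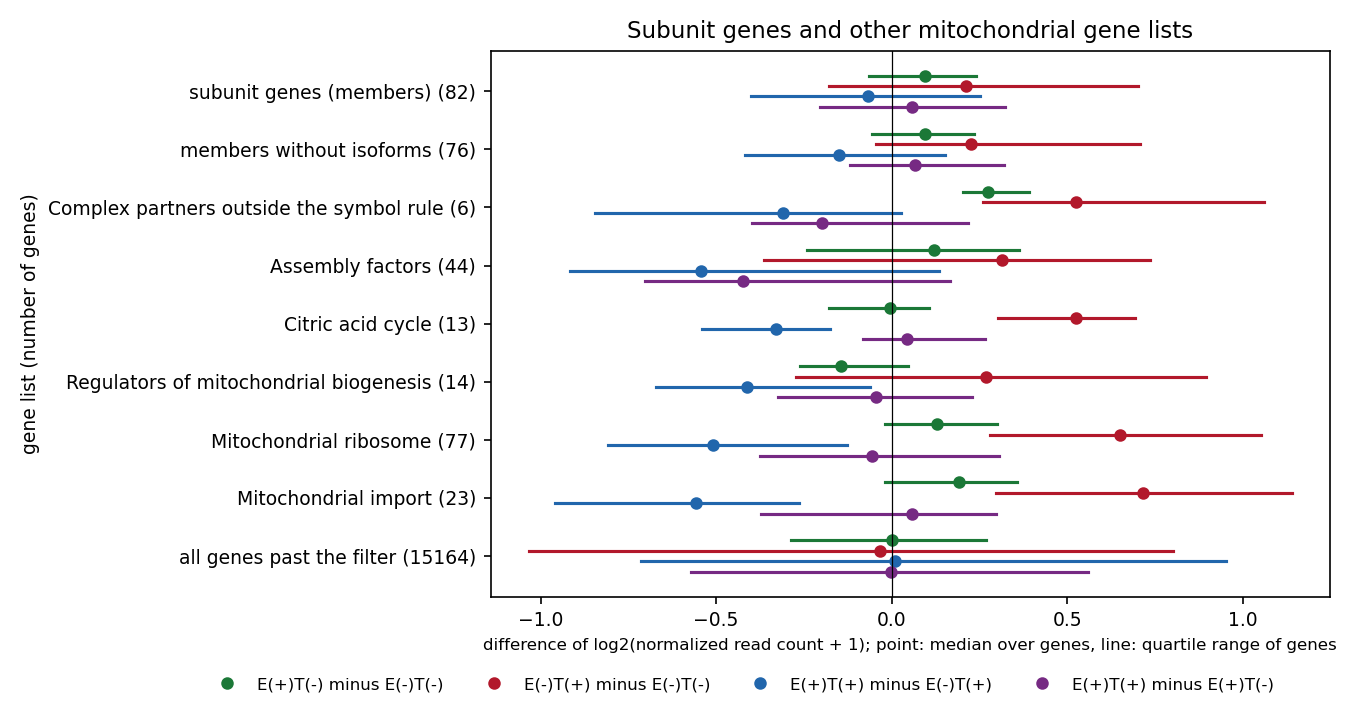
Median difference of log2(normalized read count + 1) over the genes of each list (point) and its quartile range (line) in the 4 comparisons, with the number of genes in parentheses. For the tumor without exercise the medians run from 0.21 for the members to 0.72 for mitochondrial import, and for exercise with tumor the median of every mitochondrial list is below 0, against 0.01 for all genes.

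The members have short transcripts that are rich in G and C at the 3' end. Over the longest protein-coding transcript of each gene in GENCODE M21, the median length was 870 bases against 3068 for the 13898 genes past the filter with a transcript, and the median GC content of the last 300 bases was 47.3% against 42.3%. For the tumor with exercise, genes below 47.3% GC had a median of -0.10 and genes at or above it 0.20, while the 40 members below it had 0.05 and the 42 members at or above it 0.08, so that members lay above other genes in the first class and below them in the other. For exercise with tumor the medians were -0.06 and 0.15 for all genes and -0.26 and -0.00 for the members, below all genes in both classes. For exercise without tumor they were 0.00 and -0.01 for all genes and 0.08 and 0.11 for the members, and for the tumor without exercise -0.07 and 0.01 for all genes and 0.32 and 0.12 for the members, above all genes in both classes. The part of GC content and length in the differences was not tested.

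Of the 82 members, 25 have an exon that overlaps an exon of another protein-coding gene in the GENCODE annotation of GRCm38, on the opposite strand for 22 and on the same strand for 4. Many subunit genes also have processed pseudogenes, and how reads that match several places were counted is not given in the sources used here, so the level of such a gene is uncertain.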

How the data were processed

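Lung RNA of 4 groups was sequenced from the 3' end (QuantSeq), 1 library per group. Per the labels and the study's methods, the authors aligned reads with Bowtie2 to mm10, counted them per gene with bedtools and normalized them with edgeR's quantile method. The deposited values are log2(normalized read count + 1) at 3 decimals. Whole reads were recovered by inverting a negative binomial quantile adjustment (fitted dispersion 0.372), which gave 100% of the values within 0.001, and this step and the intervals were tested on simulated data. Differences, counts and medians were computed in Python 3.11 with SciPy; with 1 library per group there was no test across genes. Shares were taken from recovered reads. The filter was a mean normalized read count of at least 4 and the limit was 2-fold. Members, lists and named genes (those past the limit or most extreme in a comparison, complex extremes, and isoform and Sdh genes) were chosen with earlier results of these data known, and Ndufs6 was named after its value was seen. Alternatives were other scalings, filters, a pseudocount of 4, whole reads, subunits alone and a fixed share of the E(-)T(+) level taken out of E(+)T(-). Positions and promoters come from RefSeq GRCm38.p6, and overlaps from GENCODE M21.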

Additional observations from a re-analysis of the deposited data

Results flagged for a closer look

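In 5 members the difference for exercise lay on opposite sides of 0 without and with tumor, with both counting intervals off 0 and the differences at least 2-fold apart. This is 6.10% of the members, against 12% of all genes past the filter. With tumor minus without tumor, the differences were -1.245 for Ndufb3, 1.079 for Uqcr11, 1.593 for Cox7a1, 1.928 for Cox8b and 1.355 for Ndufa4l2 on the log2 scale. With 1 library per group, whether these differ between mice with and without tumor was not tested.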

How the results depend on the processing

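No replicate could be left out, since each group held 1 library. No paired analysis was possible because the 4 groups hold 1 library each. Under library totals the median of all genes was -0.59 for exercise with tumor and -0.41 for the tumor with exercise, and the share of higher genes among all genes past the limit went from 57.8% to 31.4% and from 53.5% to 28.4%. The members above 0 went from 57 to 42 for exercise without tumor, from 55 to 60 for the tumor without exercise, from 35 to 10 for exercise with tumor and from 52 to 16 for the tumor with exercise. Relative to the median of all genes, the members' median kept its sign under all 3 other scalings in each comparison. A scaling moves all genes nearly alike, so this sign could hardly change and does not show stability. For exercise with tumor the relative median was -0.077, and it was -0.0055 at a mean count of at least 100. Under library totals the members past the limit were 3 higher and 21 lower for exercise with tumor and 7 lower for the tumor with exercise. For the tumor without exercise 11 members were higher under library totals (Sdhb, Uqcrc1 and Cox5a were gained), 10 under median-of-ratios size factors and 5 with hemoglobin left out of the totals, which gave 2 lower for the tumor with exercise. With no filter, 1 member was higher for exercise without tumor (Cox7b2, on 2 reads) and 2 were lower for the tumor with exercise. At a mean count of at least 100, 4 were lower for the tumor without exercise and 3 higher for exercise with tumor. The median of complex IV relative to all genes for exercise with tumor, 0.12, became -0.10 at that filter and -0.18 with Ndufa4 and Ndufa4l2 in complex I, an alternative chosen after seeing the data. Cox7a1 fell under the limit for exercise with tumor with a pseudocount of 4 and under each of the other scalings, and Cox6a2 did so for the tumor without exercise under library totals and median-of-ratios size factors.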
